A study of Mus musculus with 15 samples.

Results

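Stool collected before colitis was induced gave 6 of the 15 libraries of the study, and these 6 are described here. They were taken by their titles, which place them before dextran sulfate sodium (DSS), and split by the treatment their labels name. The GPR15L arm had 3 libraries, numbered 1 to 3, and the PBS arm had 3, numbered 4 to 6. At that time no mouse had been given DSS, the peptide or saline, so neither arm had been treated. The comparison shows how far untreated littermates differed from each other and whether the arms started alike.

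The study tested whether recombinant human GPR15L, a chemoattractant peptide of mucosal surfaces, altered the gut bacteria of mice in which DSS caused acute colitis. Peptide or sterile phosphate-buffered saline (PBS) was given once a day from day 3 to day 9. All mice of both arms were knockout littermates: the titles of the libraries name the receptor gene, Gpr15, and the text of the series names the ligand gene, Gpr15l. No wild-type library was analysed here, so every value is that of a knockout community. The labels call all mice male and the series text speaks of both sexes, and neither gives an age. Cages held 3 or 4 mice, and which mouse lived in which cage is not given. Mice of 1 cage share bacteria, so arm and cage cannot be told apart, and p-values measure only the spread between these libraries. Whether the mice sampled before DSS are those sampled after it is not given either.

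The V4 region of the bacterial 16S ribosomal RNA gene was sequenced. Reads were resolved into amplicon sequence variants (ASVs), which are exact sequences, and ASVs are numbered here by their total count. The mouse colon is dominated by Bacteroidota, which break down fibre and host glycans, and by Bacillota of the class Clostridia, which ferment carbohydrates to butyrate and other short-chain fatty acids. Muribaculaceae are the typical Bacteroidota family of mice. Mucispirillum and Helicobacter live in the mucus close to the epithelium.

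The 6 libraries held 672969 of the 1403011 counts of the series, with 62726 to 197433 per library in the GPR15L arm and 48847 to 162266 in the PBS arm. A share of 10% had a 95% Wilson interval of ± 0.266 percentage points in the shallowest library, which covers counting error only. There were 380 ASVs, 95 genera or lowest named ranks, 47 families, 29 orders and 12 phyla. The families usual in mouse stool held 41.7% to 84.9% of counts. Common reagent or skin bacteria were found in library 4 alone, at 0.00431%. Values are shares, so more of 1 taxon and fewer cells of the others cannot be told apart.

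Library 6 of the PBS arm stood apart from the 5 others. Its ASV profile lay at Bray-Curtis distances of 0.683 to 0.771 from theirs, on a scale where 0 is identical and 1 is nothing shared. It held 92 ASVs against 163 to 301 in the others. A single ASV of Mucispirillum, ASV1, made up 24.2% of its counts, and 3 ASVs held 50% of them, against 7 to 17 ASVs elsewhere. Mitochondrial sequence reached 1.36% there and at most 0.221% elsewhere. Results that rest on library 6 are given with and without it.

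Bacteroidota held most of the counts in the GPR15L arm, at 73.0%, 56.4% and 76.7% in libraries 1, 2 and 3. In the PBS arm they held 42.8%, 48.7% and 18.7% in libraries 4, 5 and 6. The arms did not overlap, and library 6 was the lowest. The means were 68.7% ± 10.8 (SD, n = 3) and 36.7% ± 15.9 (n = 3), and edgeR gave an adjusted p = 0.190. Bacillota ran the other way, at 5.64%, 23.7% and 10.2% in the GPR15L arm and 38.8%, 29.8% and 27.1% in the PBS arm. Again no library of 1 arm reached into the other, although library 2 came within a few points of library 6. The means were 13.2% ± 9.41 and 31.9% ± 6.12 (edgeR adjusted p = 0.174), and the first was 7.91% without library 2. The Bacillota sum was not of Clostridia alone. Mycoplasmatales, here Ureaplasma, were part of it, at 11.2% of counts in library 5 and at most 2.74% in the other libraries. Butyrate-forming Clostridia families, at 19.5% in library 2 and 16.0% in library 5, overlapped between the arms.

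Bacteroidota and Bacillota were the 2 of 11 tested phyla whose arms did not overlap (18.2% of phyla). No phylum passed an adjusted p of 0.05 by edgeR (0.0%); 3 had an unadjusted p under 0.05 (27.3%), and DESeq2 and limma voom called 1 each. Campylobacterota, which here is Helicobacter, ranged from 2.83% in library 3 to 23.8% in library 6. Pseudomonadota ranged from 3.34% in library 6 to 11.7% in library 5 and overlapped between the arms. Mitochondrial sequence was classed within this phylum and made up 1.36% of the counts of library 6. Deferribacterota, which here is Mucispirillum, was at 24.2% in library 6 and at 0.150% to 2.18% in the 5 others, so its PBS mean of 8.54% became 0.707% without that library. Thermodesulfobacteriota, the sulfate reducers, lay between 0.244% and 1.75%.

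Minor phyla were uneven. Verrucomicrobiota were at 1.69% in library 6, at 0.0832% in library 4, at 0.0131% in library 2 and at 0 in the 3 others (edgeR adjusted p = 0.107). All their counts before DSS were of Puniceicoccaceae, and none were of Akkermansia. Patescibacteria were found in libraries 4 and 5 alone, at 0.00555% and 0.00819% (edgeR adjusted p = 0.107). Spirochaetota were at 0.127%, 0.108% and 0.0444% in libraries 1, 2 and 4 and at 0 in the others. Actinomycetota were at most 0.128%, and Cyanobacteriota, here chloroplast sequence alone, and Eukaryota at most 0.00370%.

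**Figure D1:**
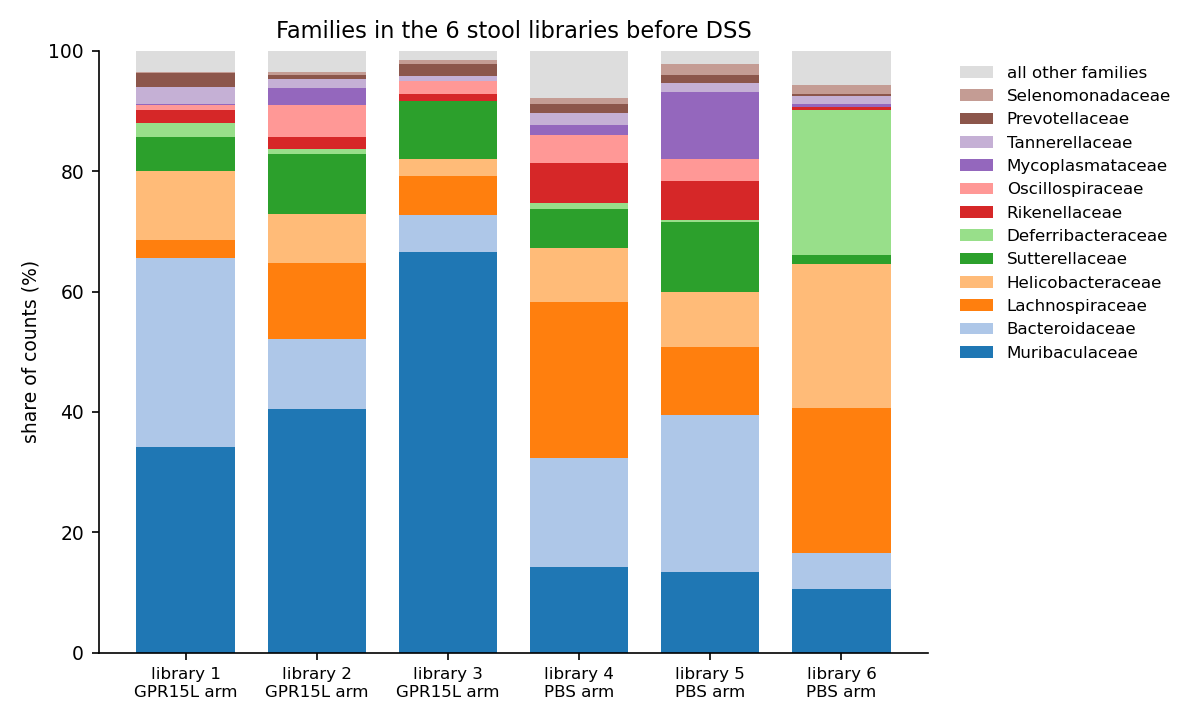
Stacked bars give the share of counts (%, y axis) of the 12 leading families in each library before DSS (x axis, with its arm). Muribaculaceae take 34.2% to 66.5% in the GPR15L arm and 10.7% to 14.2% in the PBS arm, and Deferribacteraceae take 24.2% of library 6.

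Muribaculaceae were the 1 tested family that was higher in every library of the GPR15L arm. They held 34.2%, 40.5% and 66.5% of counts in libraries 1, 2 and 3 and 14.2%, 13.5% and 10.7% in libraries 4, 5 and 6. No library of either arm came near the other arm, and library 6 lay close to the others of its arm here. The log2 fold change of the GPR15L over the PBS arm was 2.69 ± 0.79 (SE), where the median family stood at -0.65, and the edgeR adjusted p was 0.0907. Scaled by total counts alone, the family stood at 1.88 and the median at -1.30 (edgeR adjusted p = 0.0887). The family passed with DESeq2 (adjusted p = 0.0172), without the count filter (edgeR adjusted p = 0.0341) and without library 1 or 2 (0.0331 and 0.0358). It passed in no other setting tried. It failed with TMM or total-count scaling, limma voom, a filter on mean share and the 6 libraries fitted alone. It also failed with a library of conflicting labels added, and without library 3 (edgeR adjusted p = 0.211), 4, 5 or 6.

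Arms of 4 of the 38 tested families did not overlap (10.5%). The others were lower in the GPR15L arm. Selenomonadaceae, fermenters of the class Negativicutes, were at 0.196%, 0.523% and 0.649% against 1.05%, 1.84% and 1.57% (edgeR adjusted p = 0.523). Marinifilaceae, here Odoribacter, were at 0.0334%, 0.0335% and 0.0430% against 0.340%, 0.0737% and 0.173%. Rickettsiales without a family were at most 0.0262% against 0.0368% to 0.410%, with the highest value in library 6. Marinifilaceae and Rickettsiales were chosen after their values were seen. No family passed (0.0%), 7 had an unadjusted p under 0.05 by edgeR (18.4%), DESeq2 called 6 and limma voom 0. Puniceicoccaceae had the same lowest edgeR adjusted p as Muribaculaceae, 0.0907, and rested on library 6, at 1.69% there and at most 0.0832% elsewhere.

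The 2 families next in abundance overlapped between the arms. Bacteroidaceae, here the genus Bacteroides, held 31.3%, 11.7% and 6.27% in the GPR15L arm and 18.2%, 26.0% and 6.00% in the PBS arm. Means of 16.4% ± 13.2 and 16.8% ± 10.1 were nearly equal while single libraries differed several-fold, and the GPR15L mean was 9.00% without library 1. Lachnospiraceae, butyrate-forming Clostridia, held 2.94%, 12.6% and 6.46% against 25.9%, 11.3% and 24.1%. Only library 5 reached into the range of the GPR15L arm (edgeR adjusted p = 0.470).

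The Lachnospiraceae of libraries 4 and 6 were not the same bacteria. Lachnospiraceae NK4A136 group held 10.2% of library 4 and 0.0609% of library 6. Butyribacter held 10.9% of library 6 and 0.961% of library 4. In library 6 the family consisted mainly of ASV17, without a genus, at 11.2%, and ASV21, of Butyribacter, at 8.46%. ASV17 lies outside the naming rule and was chosen after its values were seen.

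**Figure D2:**
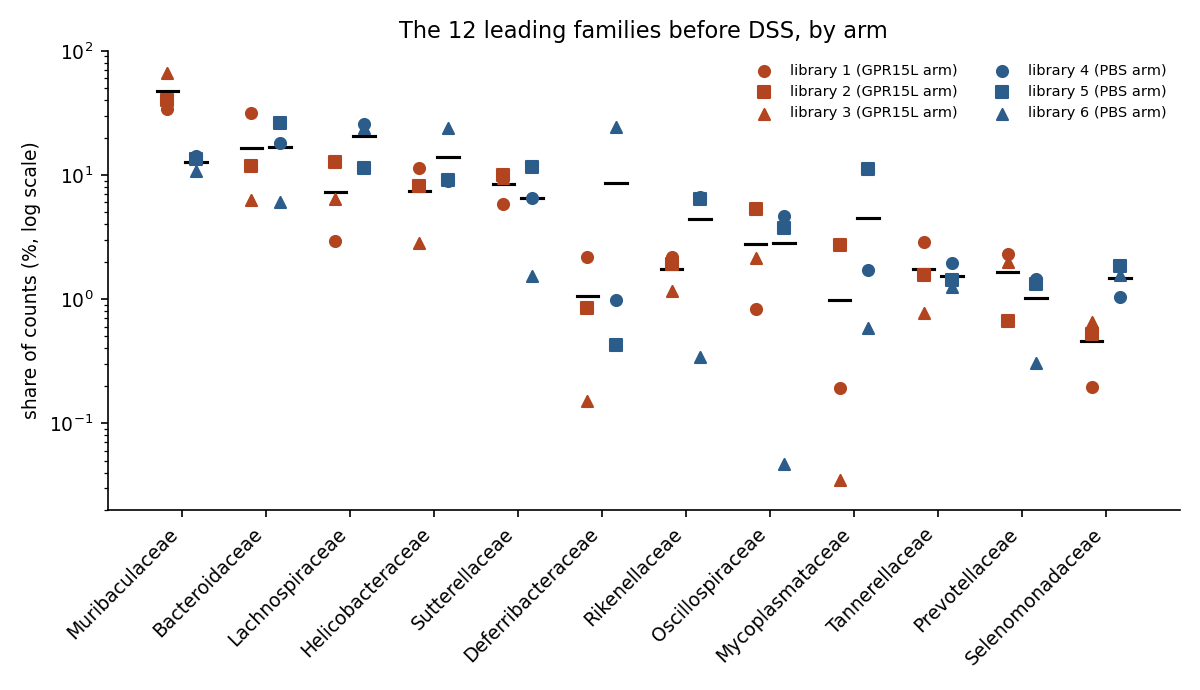
Points give the share of counts (%, log scale) of the 12 leading families in each library, red for the GPR15L arm and blue for the PBS arm, and bars give the arm means. Muribaculaceae and Selenomonadaceae are the families whose arms do not overlap, and library 6 (blue triangle) is lowest in its arm for Sutterellaceae (1.55%), Rikenellaceae (0.344%) and Oscillospiraceae (0.0466%).

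Several leading families were spread as widely within an arm as between arms. Mycoplasmataceae, wall-less bacteria represented by Ureaplasma, were at 0.190%, 2.74% and 0.0351% in the GPR15L arm and at 1.73%, 11.2% and 0.583% in the PBS arm. The PBS mean of 4.49% was 1.16% without library 5, and the GPR15L mean of 0.989% was 0.113% without library 2. Rikenellaceae, mainly Alistipes, were at 1.15% to 2.20% in the GPR15L arm, at 6.60% and 6.37% in libraries 4 and 5 and at 0.344% in library 6. Oscillospiraceae, slow-growing Clostridia, were at 0.837% to 5.33% in libraries 1 to 5.

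Sutterellaceae, here nearly all Turicimonas, ranged from 5.79% to 11.6% in libraries 1 to 5. Tannerellaceae, mostly Parabacteroides, were the most even of the leading families, at 0.770% to 2.90%. Prevotellaceae, here UCG-001, ranged from 0.308% in library 6 to 2.30% in library 1. Helicobacteraceae were at 23.8% in library 6 and at 2.83% to 11.5% in the 5 others, and the PBS mean of 13.9% was 8.97% without library 6.

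At genus level 8 of 78 tested genera did not overlap between arms (10.3%), and none passed (0.0%). The count at an unadjusted p under 0.05 by edgeR was 13 (16.7%), and DESeq2 and limma voom called 4 each. Muribaculaceae without a genus held 33.8%, 39.2% and 65.3% against 13.7%, 13.1% and 10.4% (edgeR adjusted p = 0.195). Lachnospiraceae without a genus held 0.731%, 3.95% and 2.25% against 10.8%, 4.01% and 11.6% (edgeR adjusted p = 0.394), with library 5 just above library 2. Among orders, 3 of 27 did not overlap (11.1%): Bacteroidales were higher, and Veillonellales-Selenomonadales and Rickettsiales lower, in the GPR15L arm. Rickettsiales here included mitochondrial sequence, which made up 1.36% of counts in library 6, where the order held 1.77%. The mitochondrial part alone overlapped between the arms. No order passed (0.0%), 6 had an unadjusted p under 0.05 by edgeR (22.2%), DESeq2 called 1 and limma voom 2.

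By edgeR, ASVs were the only level with calls. At that level 5 of 282 tested ASVs (1.77%) passed an adjusted p of 0.05, and 50 had an unadjusted p under 0.05 (17.7%). Of the 282, 254 had a count in the 6 libraries. The others met the filter through libraries after DSS and could be neither called nor separated. They remain in the shares and medians over all tested ASVs. Arms of 29 ASVs did not overlap (10.3%). Before DSS each of the 5 was confined to 1 arm, with counts in all 3 of its libraries. The 4 that were higher with GPR15L (1.42%) were Muribaculaceae without a genus, and 1 was lower (0.355%). The count was 0 without library 1, 2, 3 or 5 and 1 without library 4; without library 6 it was 6. It was 17 with DESeq2, 11 with limma voom and 0 when library 7, whose title and library name conflict, was taken as PBS after DSS.

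ASV49 was at 2.20%, 1.11% and 1.46% in libraries 1, 2 and 3 and had no count in libraries 4 to 6 (edgeR adjusted p = 0.0240). ASV75 was at 1.13%, 0.499% and 0.684%, and ASV82 at 0.979%, 0.483% and 0.591% (edgeR adjusted p = 0.0467 for each). All 3 were highest in library 1 and lowest in library 2. They had no count in either arm after DSS. So they met the filter of a count in 3 or more libraries through the GPR15L arm before DSS alone. An ASV of that kind found in fewer of its libraries would not have been tested, so these p-values are descriptive. ASV114 was at 0.101%, 0.381% and 0.494% and thus lowest in library 1 (edgeR adjusted p = 0.0240). A count of 0 in the PBS arm allows 0.000872% over its summed counts, so ASV49 was at least 1820-fold and ASV114 at least 373-fold higher. Such bounds cover counting error only and not the spread between mice.

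ASV49, ASV75 and ASV82 kept nearly fixed proportions to each other. The ratio of ASV82 to ASV49 was 0.445, 0.436 and 0.406 in libraries 1, 2 and 3, and that of ASV75 to ASV49 was 0.514, 0.451 and 0.470. These were among the steadiest of 178 ratios between ASVs of the same genus or lowest named rank. They rest on 3 libraries, where other ratios rest on up to 6. ASV10 to ASV4, both Bacteroides, lay between 0.544 and 0.655 in all 6 libraries, while ASV4 itself ranged from 2.03% to 11.8%. ASV15 to ASV14, both Muribaculaceae, lay between 0.838 and 0.988. A bacterial genome often holds several 16S copies, so ASVs of such a pair need not be separate strains; whether they are was not tested. These pairs were chosen for their steadiness after their values were seen.

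ASV63 of the Clostridia vadinBB60 group, an uncultured order, was the call in the other direction. It was at 0.0505%, 0.0225% and 0.0128% in libraries 4, 5 and 6 and at 0 in libraries 1 to 3, and was at least 31.4-fold higher in the PBS arm (edgeR adjusted p = 0.0240). It was the 1 ASV of 380 (0.263%) found in all PBS libraries and no GPR15L library. With the 6 libraries fitted alone its edgeR adjusted p was 0.456.

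The reverse pattern, found in all GPR15L libraries and in no PBS library, held for 8 of 380 ASVs (2.11%). Besides the 4 called ones these were rare: ASV256 of the Muribaculaceae at 0.0532%, 0.0146% and 0.0478%, ASV258 of Oscillibacter at 0.0147%, 0.0408% and 0.0383%, ASV129 of the Oscillospiraceae at 0.0167% to 0.0351% and ASV332 of Alistipes at 0.00873% to 0.0144%. None of these 4 passed by edgeR (adjusted p = 0.249, 0.191, 0.228 and 0.264). Without library 4 the number of such ASVs was 15, and without library 6 the number found in both remaining PBS libraries and no GPR15L library was 19 instead of 1.

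In most Muribaculaceae ASVs the GPR15L arm had the higher mean share, but fewer ASVs separated the arms. Of 42 tested ASVs, 37 had a higher mean share in the GPR15L arm and 5 a lower one. In 18 of them every GPR15L library was above every PBS library, and in 0 below; over all tested ASVs these were 22 (7.8%) and 7 (2.48%). Against libraries 4 and 5 alone, 21 of the 42 lay above and 2 below, beside 25 (8.87%) and 60 (21.3%) of all tested ASVs. The median log2 fold change was 1.85, beside -0.37 over all tested ASVs. Shares of 1 library sum to a fixed total, and these ASVs also make up the family sum, so the counts are no separate support for it.

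Abundant members were among them. ASV13 was at 4.41%, 6.31% and 9.80% against 0.280%, 0.536% and 1.46% (edgeR adjusted p = 0.516). ASV16 was at 6.88%, 1.42% and 10.9% against 0.531%, 0.373% and 0.0293% (edgeR adjusted p = 0.264). Both were higher in every GPR15L library than in any PBS library, and ASV16 varied within the GPR15L arm as well. ASV18, at 3.27%, 2.89% and 4.07% against 0.367%, 0.244% and 0.647%, varied less within the GPR15L arm (edgeR adjusted p = 0.228); it was chosen after its values were seen.

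The 4 called ASVs made up 12.9%, 6.11% and 4.85% of the family in libraries 1, 2 and 3. Without them the family still held 29.8%, 38.0% and 63.3% there, above the 10.7% to 14.2% of the PBS arm. In the tested members outside the 18 the arms overlapped, and those given here were also chosen after their values were seen. ASV30 led the family in libraries 4 and 5, at 2.11% and 3.29%, and ranged from 0.671% to 2.89% in the GPR15L arm. ASV14 led it in library 6, at 2.34%, where it was at 0.737% to 1.56% in the GPR15L arm. ASV109 was at 0.786% and 0.201% in libraries 4 and 5, at 0.0494% in library 3 and at 0 in the 3 others.

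**Figure D3:**
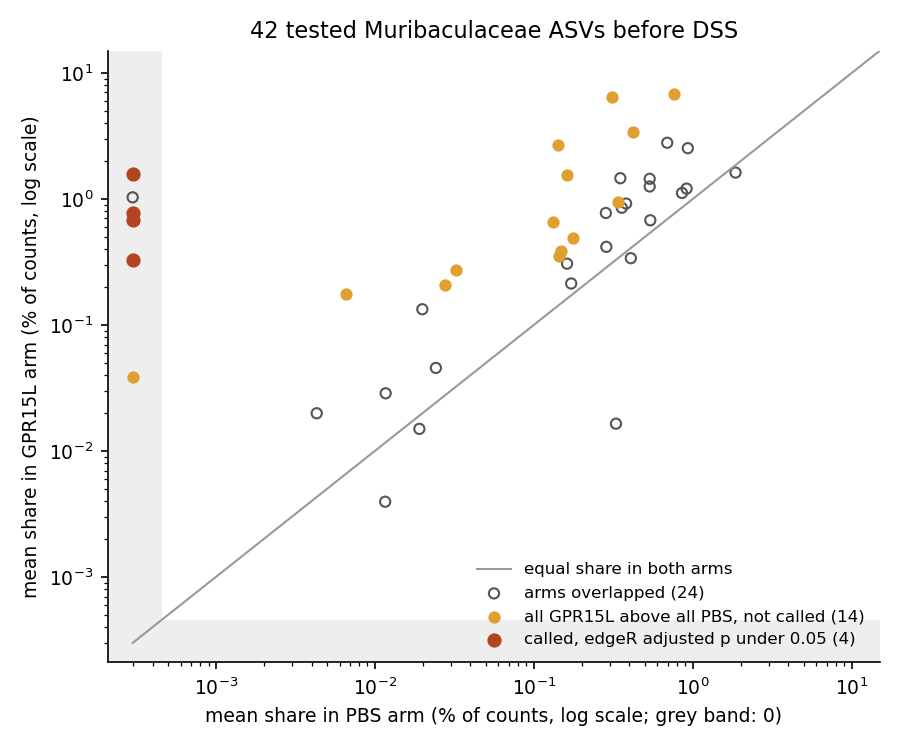
Each point is 1 of the 42 tested Muribaculaceae ASVs, placed by its mean share in the PBS arm (x axis) and the GPR15L arm (y axis), both in % of counts on a log scale with 0 drawn in the grey band. The 4 called ASVs sit in the band of 0 in the PBS arm, and 37 of the 42 lie above the line of equal shares.

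Of 100 tested Lachnospiraceae ASVs, 1 was above and 1 below in all GPR15L libraries, beside 7.8% above and 2.48% below over all tested ASVs. Their median log2 fold change was -1.16, beside -0.37 over all. Oscillospiraceae ASVs had a median of -0.00087 (39 tested, with 38 found before DSS). The medians were -1.71 for Ruminococcaceae (17 tested) and -3.05 for the Clostridia vadinBB60 group (13 tested, 1 called). Bacteroidaceae ASVs had a median of 0.61 (8 tested), with none separated.

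Make-up within families was compared by the Bray-Curtis distance between libraries over the ASVs' shares of the family's own counts, as a description. For Muribaculaceae the mean was 0.403 within arms and 0.517 between arms. Without library 6 these were 0.272 and 0.499, and the closest pair between arms (0.411) was farther apart than the farthest pair within an arm (0.375). For Bacteroidaceae the means were 0.198 and 0.169, and without library 6 they were 0.211 and 0.144. For Lachnospiraceae they were 0.589 and 0.579, and without library 6 they were 0.445 and 0.592. So the near-equal means of Lachnospiraceae rested on library 6, and without it libraries of different arms were farther apart on average than libraries of the same arm.

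Functional groups are described by their summed shares. Mucus-layer bacteria (Helicobacter, Mucispirillum and Akkermansia) held 2.98% to 13.7% in the GPR15L arm, 9.85% and 9.51% in libraries 4 and 5 and 48.0% in library 6. Akkermansia had no count in any of the 6 libraries, and 0 of 7 tested ASVs of the group passed. The Bacteroidales families that degrade fibre and glycans (led by Muribaculaceae without a genus, Bacteroides and Alistipes) had 61 tested ASVs, of which 4 passed as higher and 0 as lower, beside 1.42% and 0.355% of all tested ASVs. Their median log2 fold change was 1.49, beside -0.37 over all; the 4 are the Muribaculaceae ASVs given above. Butyrate-forming Clostridia families (led by Lachnospiraceae without a genus, Butyribacter and the NK4A136 group) held 4.00%, 19.5% and 9.01% against 31.8%, 16.0% and 24.3%, and library 5 overlapped with library 2. None of their 159 tested ASVs passed, and the median was -0.73.

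The uncultured Clostridia orders (vadinBB60 group and UCG-014) were at 0.0713% to 0.150% in the GPR15L arm and at 2.34%, 0.471% and 0.0308% in libraries 4, 5 and 6; 1 of 15 tested ASVs passed as lower, ASV63, beside 0.355% of all tested ASVs. Lactic acid bacteria and bifidobacteria were at 0.121% to 0.150% in the GPR15L arm and at 0.0361% to 0.656% in the PBS arm. Enterobacterales, the order of Escherichia-Shigella that often blooms in an inflamed gut, were at most 0.0622%. Segmented filamentous bacteria (Candidatus Arthromitus), which attach to the ileal epithelium, were found in libraries 1 and 2 alone, at 0.0127% and 0.0247%. None of the ASVs tested in these last 3 groups passed.

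Distances between single libraries showed how far littermates differed. The closest pairs were libraries 2 and 3 (0.311) and libraries 4 and 5 (0.342), each within an arm. Library 1 was at 0.480 and 0.470 from the others of its arm, and the nearest pair between arms, libraries 2 and 5, was at 0.423. So library 2 was closer to both library 4 and library 5 than to library 1. Within arms the mean was 0.420 for GPR15L and 0.602 for PBS, and between arms it was 0.586; without library 6 libraries 4 and 5 were at 0.342 and the mean between arms was 0.519.

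The arms accounted for an R2 of 0.298 of the Bray-Curtis distances (exact permutation p = 0.1, n = 3 each, the smallest p that 3 against 3 can give). R2 was 0.386 on genus, 0.441 on family, 0.437 on order and 0.518 on phylum sums, each with an exact permutation p = 0.1. It was 0.219 by presence and absence alone (Jaccard, exact permutation p = 0.4). On square roots of shares it was 0.268 (exact permutation p = 0.2). Without library 6 it was 0.478 (exact permutation p = 0.1, 3 against 2), and without library 3 it was 0.232 (p = 0.6). Without library 2 or 4 it was 0.331 and 0.340 (exact permutation p = 0.2 each). Without library 1 or 5 it was 0.350 and 0.362 (exact permutation p = 0.1 each).

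Distances could be split by family. Muribaculaceae ASVs made up 34.5% of the distance between arms, Lachnospiraceae 16.9%, Bacteroidaceae 11.5% and Helicobacteraceae 8.51%. Muribaculaceae made up 38.5% of the distance within the GPR15L arm and 10.7% of that within the PBS arm, so they also separated the libraries of the GPR15L arm from each other. Deferribacteraceae made up 5.84% of the distance between arms, and 0.727% without library 6.

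**Figure D4:**
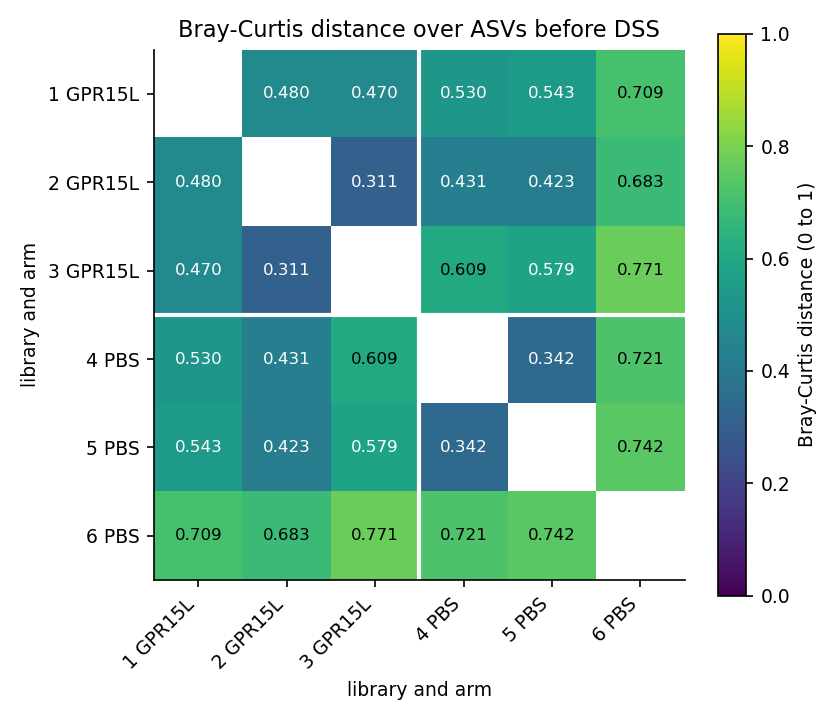
The grid gives the Bray-Curtis distance over ASVs for each pair of the 6 libraries (both axes list library and arm; colour and number give the distance). The row of library 6 runs from 0.683 to 0.771, and the lowest values are 0.311 for libraries 2 and 3 and 0.342 for libraries 4 and 5.

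Diversity spread widely in the PBS arm. Shannon index was 3.71, 4.14 and 3.76 in libraries 1, 2 and 3 and 4.51, 3.70 and 2.85 in libraries 4, 5 and 6. PBS libraries held both the highest and the lowest value, and the difference in means was 0.182 (exact permutation p = 0.7, n = 3 each), or -0.234 without library 6. Drawn to 48847 counts, the expected number of ASVs was 195, 190 and 163 against 295, 175 and 90.6 (exact permutation p = 0.9, n = 3 each). The difference of -4.15 turned positive without library 3, was 49.8 without library 4 and was -52.2 without library 6. On genus sums the Shannon difference had the other sign, -0.589 (exact permutation p = 0.2, n = 3 each).

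Libraries 4 and 6 were also the extremes of dominance. Library 4 needed 106 ASVs to reach 90% of its counts and library 6 needed 22, with 40 to 62 in the others. The leading ASV was ASV4 of Bacteroides in libraries 1, 4 and 5, at 8.25%, 6.83% and 11.8%. It was ASV7 of Turicimonas in library 2, at 7.26%, ASV16 in library 3, at 10.9%, and ASV1 in library 6.

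Most ASVs were not shared by all mice, but most counts were. Of the 380 ASVs, 124 were found in 1 library alone and held 0.966% of counts, while 53 were found in all 6 and held 77.0%. Those 53 held 60.2% to 93.4% of a single library. A further 38 were in libraries 1 to 5 and missing from library 6. Library 4 alone held 62 ASVs, 26 of them Lachnospiraceae, and library 6 alone held 12.

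**Figure D5:**
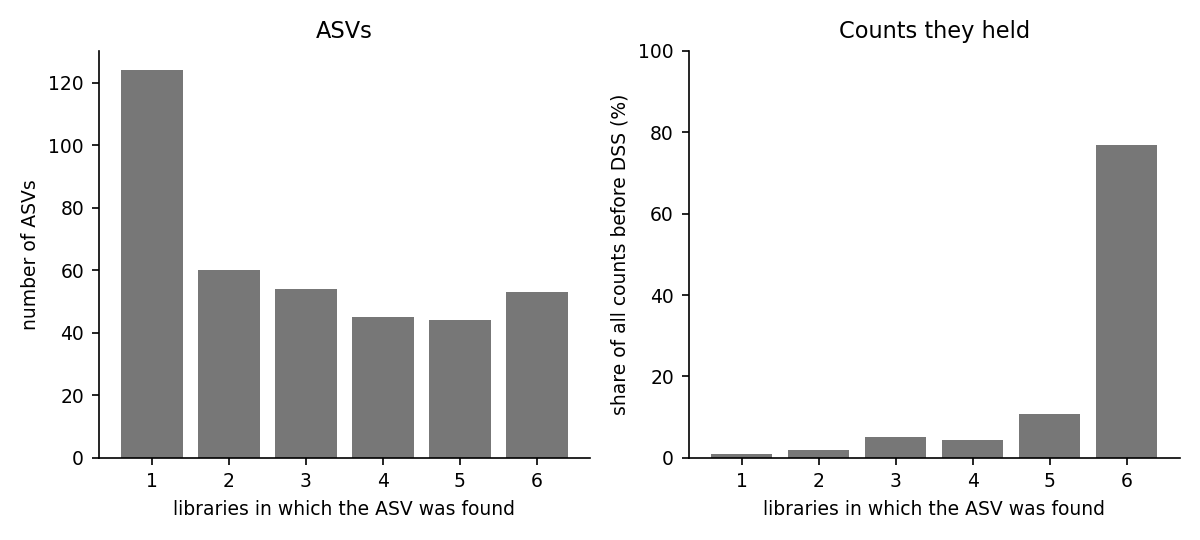
Bars give the number of ASVs (left) and the share of all counts before DSS they held (%, right) by the number of libraries in which an ASV was found (x axis, 1 to 6). The 53 ASVs found in all 6 libraries held 77.0% of counts, and the 124 found in 1 library held 0.966%.

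Sharing differed by family. Of 55 Muribaculaceae ASVs 18 were in all 6 libraries, of 11 Bacteroidaceae ASVs 6, and of 131 Lachnospiraceae ASVs 5. Library 4 held 114 Lachnospiraceae ASVs and library 6 held 19, with 35 to 63 in the others. Oscillospiraceae ASVs numbered 18 to 33 in libraries 1 to 5 and 3 in library 6. By arm, 220 ASVs were found in both and made up nearly all counts of each library, 59 in the GPR15L arm alone and 101 in the PBS arm alone.

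After DSS the arms were compared in other libraries, 4 of each arm. Of the 380 ASVs found before DSS, 231 were found after it, among them all 53 shared by the 6 libraries. ASV49, ASV75 and ASV82 had no count in any of those 8 libraries. Libraries of 1 arm lay at a median distance of 0.330 after DSS, and the difference between arms changed from before to after DSS for 28 of 282 tested ASVs (9.93%, interaction, edgeR adjusted p under 0.05). The distance from a library before to a library after DSS had a median of 0.675.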

How the data were processed

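Stool DNA was amplified over the 16S V4 region in 25 PCR cycles and sequenced with 151-base paired reads, per the labels' protocols. The authors deposited 1 table of raw read counts, whole numbers for each ASV and library. Its name is the only mention of DADA2; version, filters on reads and taxonomy database: not given in the sources used here. Per the submitters' processing notes, R 4.5.1 and limma were among the tools. PCR reads carry no molecular identifiers, so intervals cover counting error only.

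The table held 3697 ASVs, 3190 of them at 0 in all 15 libraries. Counts were summed per named rank; a genus was given for 207 of the 380 ASVs before DSS (64.2% of counts) and a family for 99.1% of counts. ASVs, genera, families, orders and phyla were each fitted with edgeR 4.0.16 (quasi-likelihood, R 4.3.3) over 14 libraries with 1 mean per group, after a filter of at least 10 counts and a count in 3 or more libraries. Scaling was TMMwsp, or total counts for orders and phyla, and p-values were adjusted by Benjamini-Hochberg over all rows of a level, with a threshold of 0.05. The filter counted all 14 libraries, so some tested rows had no count before DSS. Log2 fold changes are GPR15L over PBS. Distances and diversity were tested by exact permutation over the 20 splits of 6 libraries (SciPy 1.17.1, Python 3.11.15), two-sided for differences in means. A fold against an arm at 0 is a bound from 3 counts over that arm's summed total and covers counting error only. No library of an arm repeated another: chi-square per degree of freedom over ASVs was 98.0 to 605.

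The title of library 7 says after DSS while its name follows on from those of libraries 1 to 6. It therefore entered 1 alternative only, as PBS after DSS. Alternatives used other scaling, DESeq2 1.42.0, limma 3.58.1 (voom), other filters, the 6 libraries alone and each library left out. Taxa named are all phyla, orders of at least 1% mean share, the 12 leading families, genera and ASVs, every taxon past the threshold and up to 8 ASVs of each arm alone; others are said to be chosen after their values were seen or were named because their arms did not overlap. The libraries, lists and tests were chosen with earlier results of these data known. The scripts were tested on simulated data.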

Additional observations from a re-analysis of the deposited data

Results flagged for a closer look

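For 8 of the ASVs named, the difference between arms before DSS was not the difference after DSS, by the interaction term of the edgeR fit; over all 282 tested ASVs 28 passed (9.93%). The values below are the log2 fold change of GPR15L over PBS before DSS minus that after DSS, and the libraries after DSS are others than those before it. Where an arm had no count the size depends on the fit and is no bound. No explanation was tested.

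ASV114 of the Muribaculaceae was found in the GPR15L arm alone before DSS, at 0.325% ± 0.203 (SD, n = 3), and in the PBS arm alone after it, at 0.266% ± 0.122 (n = 4), with a value of 21.94 (edgeR adjusted p = 0.00107). The same exchange of arms was seen for ASV256 (14.49, edgeR adjusted p = 0.0326), ASV258 of Oscillibacter (15.55, 0.00802) and ASV332 of Alistipes (11.72, 0.0385). ASV258 was in 4 PBS libraries after DSS, and ASV256 and ASV332 in 2 each.

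ASV4 and ASV10, the Bacteroides pair of steady ratio, were in all 6 libraries before DSS, at means of 5.48% and 6.88% for ASV4 and of 3.34% and 4.13% for ASV10. After DSS both were found in all 4 GPR15L libraries and in no PBS library, and the values were -14.98 and -14.26 (edgeR adjusted p = 0.000271 and 0.000310). ASV5 of Helicobacter was lower in every GPR15L library before DSS and had a higher mean there after DSS, at 0.985% against 0.109% (-5.46, edgeR adjusted p = 0.00802). ASV63 was at 0 in the GPR15L arm before DSS and in all 8 libraries after it, at 0.652% and 0.619% (-7.77, edgeR adjusted p = 0.00802).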

How the results depend on the processing

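With 3 libraries per arm, exact tests could not go below 0.1, and a single library moved most means. No paired analysis was possible because the labels number the samples 1 to 15. No number links the arms, or a library before DSS to one after it. The edgeR fit treated the 14 libraries as independent, and its estimate of spread and the interaction calls rest on that. The 5 ASV calls became 3 when libraries were scaled by total counts only, 17 with DESeq2 (9 higher, 8 lower), 11 with limma voom, 10 without the count filter, 3 with the 6 libraries alone under their own filter and 0 with library 7 as titled; leaving out 1 library gave 0 to 6. Without library 1, 2 or 3, ASV49, ASV75 and ASV82 failed the count filter and were not tested, so their loss there was fixed in advance. Scaling by total counts ended the calls of ASV75 and ASV82 (edgeR adjusted p = 0.0594 each), and ASV114 was not called with the 6 libraries alone under their own filter (0.135). The 0 genera became 4 with DESeq2 and 4 with limma voom, and 0 to 2 with 1 library left out. The 0 families became 6 with DESeq2 and 3 without the count filter, and 0 to 3 with 1 library left out. The 0 orders became 1 with DESeq2, 2 with limma voom and 2 without the count filter, and 0 to 4 with 1 library left out. The 0 phyla became 1 with DESeq2, 1 with limma voom and 2 without the count filter, and 0 to 1 with 1 library left out.

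The Shannon difference reversed on genus sums (-0.589) and family sums (-0.451), and leaving out 1 library gave -0.234 to 0.592. The difference in ASVs at equal depth ran from -52.2 to 49.8 with 1 library left out. R2 was 0.219 to 0.518 over the distances and sums tried and 0.232 to 0.478 with 1 library left out; its p could not pass in this design. The 8 ASVs of the GPR15L arm alone were 8 to 15 with 1 library left out. The 1 ASV of the PBS arm alone became 2 where found meant a share above 3 counts of the shallowest library, an alternative chosen after seeing the data, and 1 to 19 with 1 library left out.

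Of 63 named taxa tested, 26 changed direction in at least 1 setting, 10 of them only when a library was left out; the cause was not tested. Log2 fold changes that changed sign were -0.15 for Pseudomonadota and 0.99 for Oscillospirales with TMMwsp scaling; 0.013 for Campylobacterales, 0.81 for Oscillospirales, -0.16 for ASV10 and -0.16 for ASV9 with TMM scaling; and -0.028 for Bacteroidaceae, -0.025 for Oscillospiraceae, -0.028 for Bacteroides and -0.31 for ASV10 with total counts. With DESeq2 they were 0.13 for Actinomycetota, 0.63 for Oscillospirales, 0.096 for ASV4 and -0.43 for ASV9. With limma voom they were 0.19 for Actinomycetota, 0.74 for Oscillospirales, 0.35 for Butyribacter, 0.23 for the Lachnospiraceae NK4A136 group, 0.097 for Alistipes, -0.051 for ASV2 and 0.34 for ASV21. Without the count filter they were 0.21 for Helicobacter and 0.33 for ASV4, with a mean share of at least 0.1% they were -0.18 for ASV10 and -0.020 for ASV9, and with the 6 libraries alone under their own filter -0.024 for ASV10.

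With 1 library left out, log2 fold changes ran across 0 for these taxa. Those that turned without library 6 were Pseudomonadota (-0.17 to 0.66), Deferribacterota and Deferribacterales (-4.11 to 0.58 each), Burkholderiales (-0.11 to 1.06), Helicobacteraceae (-1.10 to 0.26), Deferribacteraceae (-4.03 to 1.01), Helicobacter (-0.98 to 0.22), Mucispirillum (-4.01 to 1.20), ASV1 (-5.08 to 1.22) and ASV21 (-3.28 to 1.34). Those that turned without library 5 were Mycoplasmataceae (-5.08 to 0.27), Alistipes (-1.30 to 0.11) and Ureaplasma (-4.96 to 0.17), and without library 4 the NK4A136 group (-1.28 to 0.15). Those that turned without library 1 were Bacteroidaceae (-0.063 to 0.88) and Bacteroides (-0.35 to 1.30). More than 1 library turned Thermodesulfobacteriota (-0.34 to 0.72), Actinomycetota (-0.63 to 0.94), Oscillospirales (-1.005 to 0.49), Butyribacter (-0.96 to 1.52), ASV4 (-0.72 to 0.64), ASV10 (-0.63 to 0.66), ASV2 (-1.21 to 1.13) and ASV9 (-3.27 to 3.19).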

Other observations

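Library 7 belongs to no group here. Its ASV profile lay at Bray-Curtis distances of 0.528, 0.554, 0.676, 0.584, 0.599 and 0.547 from libraries 1 to 6, and on genus sums at 0.210, 0.322, 0.452, 0.454, 0.457 and 0.544. It held 93 ASVs in 167329 counts.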
